A study of Mus musculus with 2 samples.

Results

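The CaM kinases are serine/threonine kinases that are switched on by calcium bound to calmodulin. The 10 genes described here were taken by symbol from the deposited gene counts, and all 10 were found among the 32531 gene symbols: Camk2a, Camk2b, Camk2d and Camk2g for CaMKII, Camk1, Camk1d, Camk1g and Camk4 for CaMKI and CaMKIV, and Camkk1 and Camkk2 for the CaM kinase kinases. The data are 2 RNA sequencing libraries of 1 group, untreated adult mice carrying the Lypd1-EGFP/Rpl10a transgene (line OI82). In translating ribosome affinity purification (TRAP), the ribosomal protein Rpl10a is fused to EGFP, and ribosomes with their bound RNA are pulled from dissected tissue, here the dentate gyrus, with antibodies to EGFP. The tag is driven by Lypd1 regulatory sequence, so the RNA stands for whichever cells of the dissected tissue express it. The labels give no sex, no further allele, and no word on whether animals were pooled or the replicates came from separate animals, so the spread between libraries may be partly technical. No input or untagged library was analysed here. All values are therefore levels within purified RNA, and fewer cells of a type and less RNA per cell cannot be told apart.

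CaMKII is a large holoenzyme whose subunits phosphorylate each other on a regulatory threonine, after which the kinase stays partly active once calcium has fallen. At excitatory synapses it binds the NMDA receptor and phosphorylates AMPA receptors and their scaffolds, and it is required for long-term potentiation in the hippocampus. CaMKI and CaMKIV form a cascade instead: they need phosphorylation of a threonine in the activation loop by a CaM kinase kinase (CaMKK), CaMKI acting mainly in the cytoplasm on axon and dendrite growth and CaMKIV mainly in the nucleus on CREB.

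The members of each class are close relatives. For 3 CaMKII and 3 CaMKI genes, the stretch that carries the regulatory threonine shows how far their messages differ there. The stretches of Camk2a and Camk4 are not shown. The coding stretches of 60 bases around the autophosphorylated threonine of Camk2b (chr11:5988970-5989029, minus strand, exon 11), Camk2d (chr3:126797711-126797770, plus strand, exon 11) and Camk2g (chr14:20760412-20760471, minus strand, exon 11) are shown 5′ to 3′ from GENCODE M21 transcripts on GRCm38, with capitals at the 21 positions where the 3 genes do not all share a base.
Camk2b: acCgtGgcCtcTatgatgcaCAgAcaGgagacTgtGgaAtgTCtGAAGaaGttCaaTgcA
Camk2d: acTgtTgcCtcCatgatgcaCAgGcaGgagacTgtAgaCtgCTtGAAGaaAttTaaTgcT
Camk2g: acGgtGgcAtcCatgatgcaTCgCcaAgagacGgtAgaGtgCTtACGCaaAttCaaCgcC

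In this stretch Camk2b and Camk2d differed at 11 bases, Camk2d and Camk2g at 16, and Camk2b and Camk2g at 19. The CaMKI genes are shown likewise over the activation loop with the threonine that CaMKK phosphorylates, again with capitals at the 18 positions not shared by all 3. The stretches cross the junction of exons 6 and 7 in Camk1 (chr6:113338167-113338319, minus strand) and Camk1g (chr1:193352424-193354031, minus strand) and of exons 5 and 6 in Camk1d (chr2:5339238-5354708, minus strand), so these spans include an intron.
Camk1: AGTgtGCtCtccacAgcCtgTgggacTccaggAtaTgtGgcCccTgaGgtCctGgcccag
Camk1d: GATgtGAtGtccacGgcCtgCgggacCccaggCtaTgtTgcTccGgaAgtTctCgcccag
Camk1g: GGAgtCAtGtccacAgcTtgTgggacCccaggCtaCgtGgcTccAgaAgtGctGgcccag

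Over whole coding sequences, identity at aligned bases was 76.3% to 79.8% among the CaMKII genes, 59.7% to 73.2% among Camk1, Camk1d, Camk1g and Camk4, and 71.0% between Camkk1 and Camkk2. The longest run of identical bases shared by transcripts of 2 members of a class was 34 bases, between Camk2a and each of Camk2b and Camk2d. No window of 50 coding bases of any member occurred in an annotated transcript of another member. The length of the reads is not given in the sources used here, so how many reads fell within such shared runs was not tested.

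The gene lines summed to 31309643 counts in replicate 1 and to 32711412 in replicate 2. Levels are counts per 1000000 counts on genes (CPM), and levels of different genes are compared per kilobase of exon, counting every base that any annotated transcript uses. The dissected region was checked against markers. All 10 dentate granule cell markers were detected, with a summed level of 3893 and 3832 CPM in replicates 1 and 2. Sums were 122 and 160 CPM for GABAergic markers (4 of 9 detected), 474 and 529 CPM for astrocyte markers (7 of 8), and 2.81 and 3.52 CPM for microglial markers (0 of 7, with C1qa and C1qb at 0 counts). Slc1a2 held most of the astrocyte sum, which without it was 84.6 and 117 CPM. CA1 and CA3 markers, 8 of 8 detected, summed to 350.4 and 366 CPM. The lists hold different genes and the sums are not per kilobase. Without an input library they show presence and not enrichment.

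All 10 CaM kinase genes were detected, meaning at least 1 CPM in each library, as were 38.1% of all symbols in the tables. They spanned about 3 orders of magnitude per kilobase. Camk2a and Camk2b stood at the top, Camk1d, Camkk1, Camk4 and Camk2g formed a middle group, Camkk2 and Camk2d came lower, and Camk1g and Camk1 were lowest. The median over the 10 genes was 41.0 CPM per kilobase, against 5.16 for all detected genes with an annotated exon length, and 7 of the 10 lay above that value. Together the 10 genes took 9808 and 8803 CPM in replicates 1 and 2, and the 4 CaMKII genes held 91.9% and 91.6% of that. The CaMKI and CaMKIV genes held 5.56% and 5.65%, and the CaMKK genes 2.53% and 2.77%. Per kilobase of exon these shares were 88.4% and 87.6% for CaMKII, 7.64% and 7.62% for CaMKI and CaMKIV, and 3.99% and 4.74% for CaMKK.

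**Figure D1:**
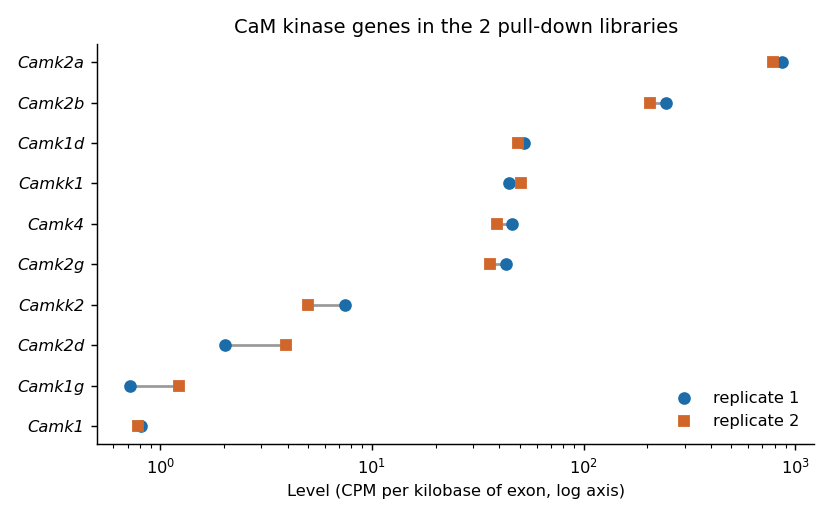
Level of each CaM kinase gene in replicate 1 (circles) and replicate 2 (squares), in CPM per kilobase of exon on a log axis, ordered by the mean. Camk2a is at 865 and 786, and Camk1 at 0.813 and 0.788. The points of Camk2d, Camkk2 and Camk1g lie farther apart than those of the other genes.

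Camk2a, on chromosome 18 (60925618 to 60988152, plus strand), encodes the alpha subunit, whose message is also carried into dendrites. It had 6457 and 5864 CPM in replicates 1 and 2, and ranked 6 of all 32531 symbols. Per kilobase it was at 865 and 786, rank 9 among the 23927 symbols with an exon length. Its nearest neighbours in level per kilobase were the actin gene Actb (876 ± 125, SD, n = 2) and the thymosin gene Tmsb4x (864 ± 179) above, and the sodium pump subunit gene Atp1b1 (814 ± 83.5) and the neuronal calcium sensor gene Hpca (791 ± 115) below. These lie within the spread between libraries of Camk2a, 825 ± 56.2, and with 2 libraries of 1 group nearness in level is the only likeness that could be measured.

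Camk2b, on chromosome 11 (5969644 to 6066362, minus strand), encodes the beta subunit, which binds filamentous actin and ties the holoenzyme to the cytoskeleton of the spine. It had 2236 and 1878 CPM in replicates 1 and 2, rank 25, and 245 and 206 CPM per kilobase. Every library of Camk2a was above every library of Camk2b. Within a library, where the total cancels, Camk2a exceeded Camk2b 3.53-fold in replicate 1 and 3.82-fold in replicate 2 per kilobase, and 2.89-fold and 3.12-fold in counts. This factor rests on which bases are counted as exon, since Camk2b has 15 annotated transcripts that add up to 9125 bases while the longest has 4125. Per kilobase of the longest transcript it was 2.49 ± 0.138, and per kilobase of coding sequence 4.09 ± 0.227.

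Camk2g, on chromosome 14 (20734875 to 20794088, minus strand), encodes the gamma subunit, one form of which carries calmodulin from the membrane to the nucleus. It was at 276 and 232 CPM in replicates 1 and 2, or 43.1 and 36.2 CPM per kilobase. Camk2d, on chromosome 3 (126596302 to 126846326, plus strand), encodes the delta subunit, the main form in heart muscle. It was the least abundant CaMKII gene, with 45.6 and 88.1 CPM in replicates 1 and 2. Its level per kilobase, 2.03 and 3.92, is divided by 22493 bases of annotated exon from 28 transcripts, and with the longest transcript (5524 bases) it was 8.26 and 15.95.

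As shares of CaMKII per kilobase, Camk2a held 74.9% in replicate 1 and 76.2% in replicate 2, Camk2b 21.2% and 19.9%, Camk2g 3.73% and 3.51%, and Camk2d 0.176% and 0.380%. Of the 282237 CaMKII counts in replicate 1, 71.6% were on Camk2a (95% Wilson interval 71.5% to 71.8%), and of the 263701 in replicate 2, 72.7% (72.6% to 72.9%). Reads carry no molecular identifiers, so such intervals cover counting error only. The alpha and beta genes together held 96.4% and 96.0% of CaMKII counts, while the place of Camk2d as the lowest did not depend on the length used.

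**Figure D2:**
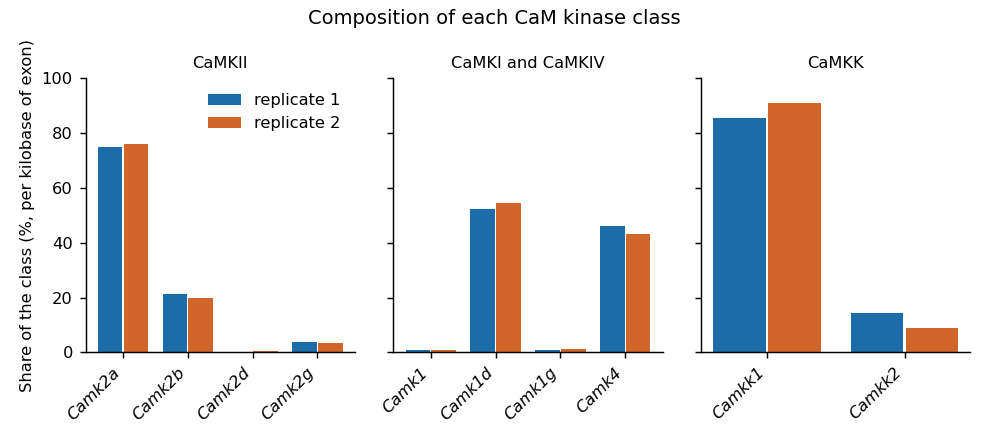
Share of each gene within its class, in percent of the class's summed CPM per kilobase of exon, for replicate 1 and replicate 2. Camk2a leads CaMKII at 74.9% and 76.2%, Camk1d and Camk4 hold nearly all of the CaMKI and CaMKIV class, and Camkk1 leads the CaMKK class at 85.6% and 91.0%. The CaMKI and CaMKIV class here leaves out the CaMKI gene Pnck.

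The upstream kinases were uneven. Camkk1, on chromosome 11 (73019008 to 73042073, plus strand), encodes CaMKK alpha. It was at 166 and 189 CPM in replicates 1 and 2, or 44.6 and 50.8 CPM per kilobase. Camkk2, on chromosome 5 (122731170 to 122779409, minus strand), encodes CaMKK beta, which also phosphorylates the energy sensor AMPK. It was at 81.7 and 54.6 CPM, or 7.48 and 4.999 CPM per kilobase, below Camkk1 in each library.

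The difference between these genes was itself uneven between the libraries. Camkk1 counts were 2.04 times those of Camkk2 in replicate 1 and 3.47 times in replicate 2, a change of 1.70-fold with a 95% counting interval of 1.59 to 1.83. Per kilobase of exon Camkk1 made up 85.6% and 91.0% of the class, and its mean share was 72.3% of counts and 75.2% per kilobase of coding sequence. Camkk1 was the higher of the pair under each of these lengths.

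Among the CaMKI and CaMKIV members, which leave out the CaMKI gene Pnck, Camk1d and Camk4 carried the class. Camk1d, on chromosome 2 (5293457 to 5714515, minus strand), encodes CaMKI delta. It was at 388 and 363 CPM in replicates 1 and 2, or 52.2 and 48.9 CPM per kilobase. Camk4, on chromosome 18 (32934931 to 33191228, plus strand), encodes CaMKIV, the nuclear kinase of CREB. It was at 150.4 and 126 CPM, or 46.1 and 38.8 CPM per kilobase. Camk1d was above Camk4 in each library, 1.13-fold and 1.26-fold per kilobase of exon.

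The distance between Camk1d and Camk4 depends on the length. It was 1.01-fold and 1.12-fold with the longest transcript, and 3.14-fold and 3.50-fold with the coding sequence, since most of the Camk1d exon bases lie outside its 1155 coding bases. An antisense gene shares 72 exon bases with Camk4 and has no line of its own in the tables. Without a stated strand setting, its reads cannot be told apart from those of Camk4 there.

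Camk1 and Camk1g, the other CaMKI genes among the 10 members, were scarce. Camk1, on chromosome 6 (113334124 to 113343984, minus strand), encodes CaMKI alpha and had 152 and 154 counts in replicates 1 and 2. That is 4.85 CPM, with a 95% counting interval of 4.11 to 5.69, and 4.71 CPM, with 3.99 to 5.51. On the opposite strand Ogg1, with 63 and 29 counts, shares 232 bases, or 3.88%, of the Camk1 exons. Camk1g, on chromosome 1 (193346346 to 193370298, minus strand), encodes CaMKI gamma, a membrane-anchored form, and had 62 and 111 counts, or 1.98 and 3.39 CPM. Camk1d counts exceeded those of Camk1 79.9-fold and 77.1-fold, and those of Camk1g 196-fold and 107-fold.

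In the order per kilobase of exon, 5 of the 9 pairs of neighbours were apart, in that both libraries of the upper gene lay above both of the lower. These were Camk2a over Camk2b, Camk2b over Camk1d, Camk2g over Camkk2, Camkk2 over Camk2d, and Camk2d over Camk1g. The 4 genes Camk1d, Camkk1, Camk4 and Camk2g overlapped from each to the next, with means between 50.5 and 39.6 CPM per kilobase, and so did Camk1g and Camk1. With the longest transcript Camk2g stood next after Camk2b at 68.5 ± 8.38, above Camk1d at 53.9 ± 2.55, and Camkk2 overlapped Camk2d. With the coding sequence Camk1d stood next after Camk2b at 325 ± 15.4 and Camk2g next at 149.7 ± 18.3. Camk2a and Camk2b held the top places, and Camk1 and Camk1g the lowest, under all 3 lengths.

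**Figure D3:**
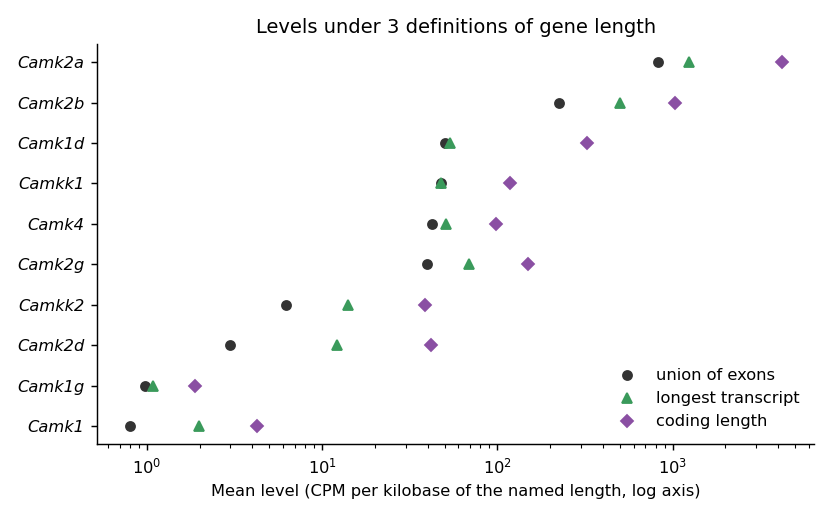
Mean level over the 2 libraries for each gene, in CPM per kilobase on a log axis, with the union of exons (circles), the longest transcript (triangles) or the coding sequence (diamonds) as the length. Camk2a and Camk2b lead under each, while Camk2g and Camk1d exchange places between the longest transcript and the coding sequence.

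The 2 libraries were then compared gene by gene. This compares these libraries and not conditions, and with 1 library on each side there is no test. Totals were scaled by TMM, and ratios are given as replicate 2 over replicate 1. A mean CPM of at least 10 was required, which 8 CaM kinase genes passed and Camk1 and Camk1g did not. Of the 8442 genes compared, 9.44% were higher in replicate 2 by 1.5-fold or more and 7.12% were lower by as much. With library totals alone these shares were 6.53% and 10.5%, so the balance of higher against lower genes turned with the scaling. Of the 8 CaM kinase genes, 1 was higher by that measure and 0 lower, which is near the background. Their median log2 ratio was -0.10, against 0.03 for all genes compared. With library totals alone these medians were -0.19 and -0.06.

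Camk2d was the member past 1.5-fold, with a log2 ratio of 1.04 (95% counting interval 0.95 to 1.14), 2.06-fold. Of the compared genes, 2.18% were higher in replicate 2 by 2-fold or more, and 1.01% lower by as much. With library totals alone its log2 ratio was 0.95, below 2-fold. Within CaMKII, the counts of Camk2g were 6.04 times those of Camk2d in replicate 1 and 2.63 times in replicate 2.

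Camkk2 had the next largest ratio among the compared members, -0.49 (-0.58 to -0.40), and 10.6% of all compared genes had a lower one. Camkk1 was at 0.28 (0.23 to 0.33). Camk2b, Camk2g and Camk4 were all at -0.16, Camk2a at -0.05 and Camk1d at 0.00. With TMM scaling these 5 messages, including the most abundant ones, thus differed by at most 1.12-fold. With library totals alone Camk2b, Camk2g and Camk4 were at -0.25, Camk2a at -0.14 and Camk1d at -0.10. Camk1g, from few counts, had a ratio of 0.85 with a wide interval of 0.41 to 1.34, and Camk1 had 0.05 (-0.28 to 0.38).

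**Figure D4:**
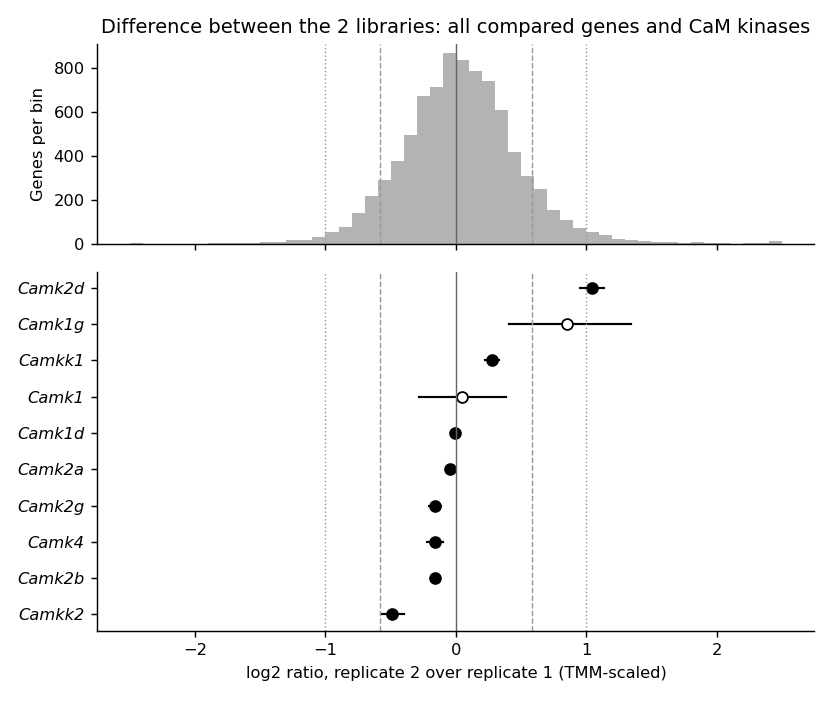
Upper panel, number of genes per bin of the log2 ratio of replicate 2 to replicate 1, for the 8442 genes at a mean of 10 CPM or more (ratios beyond the axis are placed in the end bins). Lower panel, the same ratio for each CaM kinase gene with its 95% counting interval, open circles marking Camk1 and Camk1g, which are below that level. Dashed lines mark 1.5-fold and dotted lines 2-fold, and Camk2d at 1.04 lies at the edge of the distribution.

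Other gene lists differed between the libraries alongside Camk2d. Of 12 genes induced by neuronal activity, 8 were compared and 7 were at least 1.5-fold higher in replicate 2, with Egr3 at 304 and 2071 CPM and Arc at 33.2 and 265 CPM. The others were Homer1, Inhba, Bdnf, Fosb and Nptx2, with log2 ratios of 2.43, 3.62, 1.67, 1.997 and 2.29. Of all compared genes, 9.44% were higher by 1.5-fold or more. The summed level of the 12 activity genes was 729 and 3803 CPM in replicates 1 and 2. Egr3 made up the largest part of that difference. Egr1 was lower in replicate 2, at 112 and 86.2 CPM. Below a mean of 10 CPM, Npas4 and Junb were lower too, while Fos and Nr4a1 were higher. Markers of immature neurons summed to 78.0 and 322 CPM, with 3 of 6 detected and Eomes and Igfbpl1 at 0 counts. Sox11 alone carried this difference, at 63.3 and 312 CPM, since Dcx, Calb2 and Neurod4 were lower in replicate 2 and the sum without Sox11 was 14.7 and 10.2 CPM. The GABAergic and astrocyte sums given above were also higher in replicate 2, with 4 of 9 and 6 of 8 markers higher. CA1 and CA3 markers (8 of 8 detected) summed to 350.4 and 366 CPM. Of these, Pvrl3 was at 8.72 and 54.3 CPM, and without it the sum was 342 and 312 CPM, Wfs1, Fibcd1, Mpped1, Bok, Grik4 and Iyd being lower in replicate 2. Egr1, Npas4, Junb, Fos, Nr4a1, Sox11 and Pvrl3 were singled out after their values were seen. Sums were 160.2 and 113 CPM for mossy cells (4 of 5), 191 and 145 CPM for oligodendrocytes (6 of 8) and 23.4 and 19.4 CPM for endothelial cells (4 of 6). Their part in the Camk2d difference was not tested.

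The promoters of Camk2d and Camk1g, the members with the highest ratios, are shown from the RefSeq table of GRCm38.p6, from 250 bases before to 50 after the annotated start, in lower case because no motif searched was in them. They are Camk2d at chr3:126596701-126597000 on the plus strand and Camk1g at chr1:193370233-193370532 on the minus strand. The Camk2d window lies inside the GENCODE gene, which begins at 126596302, and other starts of Camk2d were not searched.
Camk2d: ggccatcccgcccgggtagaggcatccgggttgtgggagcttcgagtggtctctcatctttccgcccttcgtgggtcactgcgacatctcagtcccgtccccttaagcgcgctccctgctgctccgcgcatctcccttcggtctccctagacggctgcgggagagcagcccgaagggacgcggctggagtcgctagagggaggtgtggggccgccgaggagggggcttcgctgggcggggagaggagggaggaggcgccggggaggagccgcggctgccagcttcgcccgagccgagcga
Camk1g: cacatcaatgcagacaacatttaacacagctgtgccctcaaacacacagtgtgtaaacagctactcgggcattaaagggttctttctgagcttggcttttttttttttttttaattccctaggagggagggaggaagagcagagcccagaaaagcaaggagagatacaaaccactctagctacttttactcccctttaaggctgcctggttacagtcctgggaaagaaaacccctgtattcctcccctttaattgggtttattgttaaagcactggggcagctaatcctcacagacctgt

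The Camk2d window was 70.3% G and C with 31 CG pairs, and the Camk1g window 44.7% with 1, against a median of 52.7% over the 32851 promoters of the table. Both strands were searched for the cyclic AMP response element TGACGTCA (in 1.79% of all promoters), its shorter form TGACG (20.8%, which every full element also holds), the AP-1 site TGANTCA (7.81%), the Egr site GCGNGGGCG (5.55%) and TATAAA (13.6%). Of the 7 members with an entry, Camk1 and Camkk1 each held 1 TGACG, Camk2b held 3 matches to the Egr site and Camk1d 1.

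The genes around the kinases were given by 5 lists of 72 genes in all, of which 67 were detected and 61 compared between the libraries. Of these 61, 1 was higher in replicate 2 by 1.5-fold or more and 2 were lower by as much, and their median log2 ratio was 0.02. No gene compared in these lists differed 2-fold. The count of lower genes moved with the scaling: with library totals alone it was 6, Crtc2, Mef2d, Pnck and Prkag2 being added at log2 ratios of -0.59 to -0.63, and with DESeq2 size factors it was 1, Nrgn passing no longer at -0.58. The shares of all compared genes were 9.44% and 7.12%, or 6.53% and 10.5% with library totals alone. Of all symbols in the tables, 38.1% were detected. Whether these lists differ from the tables as a whole was not tested.

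Calmodulin itself, the calcium sensor that opens the kinases, was abundant. Calm2 was at 4451 and 5422 CPM in replicates 1 and 2, and Calm3 at 1421 and 1332 CPM. Per kilobase of exon Calm2, at 3365 ± 468, was above Camk2a in each library, and Calm3, at 568 ± 26.2, was below it. Calmodulin copies elsewhere in the genome can take reads from these genes.

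Of the endogenous CaMKII inhibitors, small proteins that bind the catalytic domain, Camk2n1 was at 1125 and 1099 CPM in replicates 1 and 2 and Camk2n2 at 20.8 and 11.6 CPM. Camk2a exceeded Camk2n1 3.42-fold and 3.18-fold per kilobase of exon. With coding length, which is short in Camk2n1, Camk2a was at 0.915 and 0.851 times its level, so the order of this pair turns with the length. Camk2n2 was lower in replicate 2 with a log2 ratio of -0.74, from 650 and 380 counts.

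Nrgn, which encodes the postsynaptic calmodulin store neurogranin, was at 428 and 266 CPM in replicates 1 and 2, and its log2 ratio of -0.59 was just past 1.5-fold. Pcp4, another calmodulin-binding protein gene and a marker of CA2, was below 1 CPM in both, at 0.256 and 0.397. Thus 2 of the 6 compared genes of this list were at least 1.5-fold lower in replicate 2 and 0 that much higher. Of all compared genes, 7.12% were that much lower and 9.44% that much higher.

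**Figure D5:**
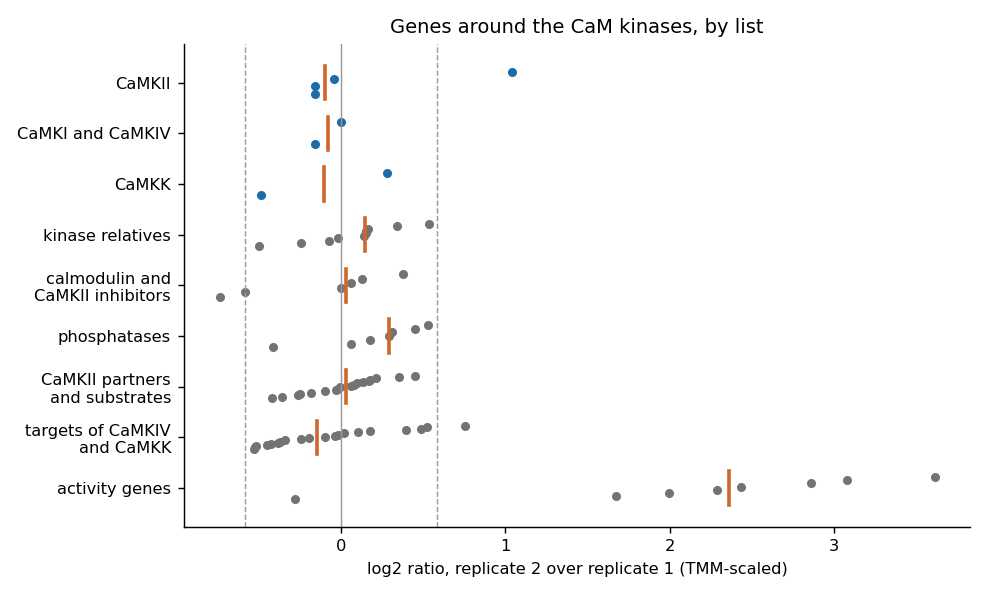
Log2 ratio of replicate 2 to replicate 1 for every compared gene of the CaM kinase classes and of the lists around them, each point a gene and each upright bar the list's median. Dashed lines mark 1.5-fold. Most lists lie between them, and the activity genes at the bottom have a median of 2.36.

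All 7 phosphatase genes were detected, against 38.1% of all symbols. None differed 1.5-fold, while 9.44% of all compared genes were that much higher in replicate 2 and 7.12% lower. Ppm1e, which encodes a phosphatase that acts on CaM kinases, was the highest in counts, at 601 and 698 CPM in replicates 1 and 2. Its relative Ppm1f was at 38.3 and 26.9 CPM. Of the catalytic subunits of protein phosphatases 1 and 2A, Ppp1cb was at 555 and 587 CPM, Ppp2ca at 259 and 297 CPM, and Ppp2cb at 126 and 124 CPM.

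All 19 genes for CaMKII partners and substrates at the synapse were detected, against 38.1% of all symbols. Of the 18 compared none differed 1.5-fold, while 9.44% of all compared genes were that much higher and 7.12% lower. Kalrn, an exchange factor that enlarges spines, was at 1269 CPM in both libraries. The synaptic vesicle protein gene Syn1 was at 910.2 and 716 CPM, the AMPA receptor subunit gene Gria1 at 683 and 626 CPM, and the exchange factor gene Tiam1 at 431 and 467 CPM. Grin2b, the NMDA receptor subunit to which CaMKII docks, was at 263 and 271 CPM, and was named outside the rule after its values were seen.

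All 22 genes for targets of CaMKIV and CaMKK were detected, against 38.1% of all symbols. The highest were the transcription factor genes Mef2c (529 and 502 CPM in replicates 1 and 2), Mef2a (411 and 380 CPM) and Mef2d (393 and 257 CPM), and the coactivator gene Crebbp (428 and 375 CPM). Of 20 compared, Crem, which encodes a CREB relative, was at least 1.5-fold higher in replicate 2, at 10.99 and 17.4 CPM (log2 ratio 0.75). None was that much lower. Of all compared genes, 9.44% were that much higher and 7.12% lower. The CREB coactivator genes Crtc1, Crtc2 and Crtc3 had negative ratios that stayed within 1.5-fold, from -0.43 to -0.53 with TMM, and were named, like Ppm1f, after their values were seen.

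Among kinases related to the CaM kinases, 12 of 16 were detected, against 38.1% of all symbols. None of the 10 compared differed 1.5-fold, while 9.44% of all compared genes were that much higher and 7.12% lower. Dclk1, a doublecortin-like kinase of growing neurites, was at 1483 and 1757 CPM in replicates 1 and 2. Dapk1 was at 318 and 252 CPM, the pseudokinase gene Camkv at 228 and 235 CPM, and the scaffold kinase gene Cask at 127 and 134 CPM. Pnck, the remaining CaMKI gene, was at 75.0 and 49.6 CPM, above Camk1 and Camk1g in each library, with 31.6 ± 9.08 CPM per kilobase against 0.800 ± 0.0174 and 0.974 ± 0.362, and was likewise named after its values were seen. Dapk2 and Mylk2 had 0 counts in both libraries, which allows up to 3 counts or 0.0958 and 0.0917 CPM in replicates 1 and 2. Mylk4 was at 0.160 and 0.336 CPM and Mylk3 at 1.53 and 0.795 CPM.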

How the data were processed

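The authors deposited counts per gene symbol for each library, not normalised. STAR 2.0.0e, HTSeq and genome build mm10 are named per the submitters' processing notes, while no source used here gives the annotation or the strand setting. Lines starting with __ and the line unknown name no gene and were left out. They held 35.0% of counts in replicate 1 and 35.1% in replicate 2. CPM, exon lengths (GENCODE M21, GRCm38, matched by symbol for 23155 and by older symbol for 772 of 32531 symbols, and for 95.6% of detected genes) and shares were computed here. Ratios used edgeR 4.0.16 TMM factors and a prior count of 2, with exact intervals, and the script was tested on simulated data. Changes of within-library ratios have intervals on the log scale from the counts. With 1 group no test was possible. The members and lists were chosen with earlier results of these data known. All 10 members are named, and of each list the 4 highest genes, genes below a CPM of 1, genes past 1.5-fold and the 2 neighbours on each side of Camk2a per kilobase. Values are mean ± SD over 2 libraries, and DESeq2 1.42.0 size factors were an alternative. A gene that the naming rule covers is not reported here.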

Additional observations from a re-analysis of the deposited data

How the results depend on the processing

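No paired analysis was possible because the study has 1 group. Of 209 values recomputed under another setting, 148 moved by less than the spread between libraries, the counting interval or 1.5 times, and 61 moved by more. Leaving out 1 of 2 libraries moves a mean by less than their SD whatever the values. Values recomputed without a replicate were therefore bound to be among the 148, and their number says nothing about stability. No ratio past 1.5-fold changed sign. Ratios near 0 did: the log2 ratio of Camk1 was 0.05, and -0.04 with library totals, and that of Camk1d was -0.0042, and 0.0015 with DESeq2 size factors. Length set most of these: the ratio of Camk2a to Camk2b was 3.67 per kilobase of exon, 2.49 with the longest transcript and 4.09 with the coding length. Mean shares were 75.5% for Camk2a, 53.4% for Camk1d and 88.3% for Camkk1 within their classes, against 72.2%, 72.1% and 72.3% of counts and 77.5%, 75.7% and 75.2% with the coding length. With a minimum mean CPM of 1, or no minimum, 2 CaM kinase genes were at least 1.5-fold higher in replicate 2, Camk1g being added. Over all genes, 797 were 1.5-fold higher and 601 lower, and 184 were 2-fold higher and 85 lower. A minimum mean CPM of 1 gave 1643, 1877, 590 and 753, and no minimum gave 4143, 3833, 2331 and 2149, since more genes of few counts enter. Library totals alone gave 551, 885, 130 and 129, so that more genes were lower than higher at 1.5-fold. Leaving out either replicate moved the summed level of the 10 genes between 8803 and 9808 CPM. For ratios this could not be done, as each needs both libraries. Depth limits Camk1 and Camk1g, with 62 to 154 counts a library.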
